A study of Mus musculus with 6 samples.

Results

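The genes described here drive cells through mitosis and separate the chromosomes: cyclins and Cdk1, the Plk and Aurora kinases, the spindle checkpoint, kinetochore proteins, spindle motors, condensin, the machinery of cytokinesis and of sister chromatid separation, and 2 transcription factors of these genes. They were taken by name from a list of 44 genes, by a rule that uses no measured value, though the list was drawn up with earlier results of these data known. Of these, 43 were among the 23279 genes tested and 1, the cyclin gene Ccnb1, was not analysed here. Expression was measured in whole fetal liver of mouse embryos at embryonic day 11.5, with 3 arrays of livers labelled Stab2Cre;Gata4 knockout and 3 of control livers labelled Stab2Cre;Gata4 heterozygous. The arrays ask what loss of endothelial GATA4 does to the growing liver and its blood-forming cells, as the series title frames it. Per the labels, mice carrying Stab2-Cre and 1 floxed Gata4 allele were mated to mice with both alleles floxed, so both groups carry the Cre transgene and at least 1 floxed allele. The labels do not say whether an array holds 1 embryo or a pool, or which embryos were littermates. The Stab2 promoter is active in sinusoidal endothelium, so the deletion is aimed at 1 cell type of a mixed organ.

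Entry into mitosis is driven by Cdk1 bound to A-type and B-type cyclins, after Cdc25 phosphatases remove inhibitory phosphates from Cdk1. The spindle checkpoint holds back the anaphase-promoting complex until every kinetochore is attached, after which securin and the cyclins are destroyed, separase cleaves cohesin, and the cell divides. The transcripts of many of these genes accumulate in G2 and M phase. In the fetal liver many cell types divide, above all red cell precursors and hepatoblasts. A value from whole liver reads the share of the RNA that a transcript makes up, so fewer cells of a dividing type and less RNA per cell cannot be told apart.

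Many promoters of mitotic genes hold a short element called CHR (TTTGAA or TTCGAA), where the MuvB complex acts, together with CCAAT boxes, which NF-Y binds. Stretches of 5 promoters are printed to show these elements, or CCAAT boxes alone, in genes from both ends of the measured changes: Ccnb2 and Cdc25b, among the 4 members with the most negative differences, Cdc20 (−0.23), Cdk1 (0.0085), and Ect2, the member with the most positive difference. Each stretch is the 130 bases just before the annotated start (the most upstream start where RefSeq gives several), 5′ to 3′ on the strand of the gene, from RefSeq on GRCm38.p6, with every match to CHR or to CCAAT (either strand, so CCAAT also as ATTGG) in capitals.
Ccnb2 (chr9:70421555-70421684, minus strand): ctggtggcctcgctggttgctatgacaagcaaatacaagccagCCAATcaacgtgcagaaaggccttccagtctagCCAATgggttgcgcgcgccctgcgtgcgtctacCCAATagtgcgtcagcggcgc
Cdc25b (chr2:131186818-131186947, plus strand): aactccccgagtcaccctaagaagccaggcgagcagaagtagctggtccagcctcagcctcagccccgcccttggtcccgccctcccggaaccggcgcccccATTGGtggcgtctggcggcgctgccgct
Cdc20 (chr4:118437344-118437473, minus strand): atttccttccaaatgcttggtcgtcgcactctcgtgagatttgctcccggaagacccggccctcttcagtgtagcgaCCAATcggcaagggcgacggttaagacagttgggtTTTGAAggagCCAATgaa
Cdk1 (chr10:69352913-69353042, minus strand): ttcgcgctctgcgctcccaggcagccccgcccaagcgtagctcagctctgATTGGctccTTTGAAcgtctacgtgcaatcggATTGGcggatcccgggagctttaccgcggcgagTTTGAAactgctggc
Ect2 (chr3:27153879-27154008, minus strand): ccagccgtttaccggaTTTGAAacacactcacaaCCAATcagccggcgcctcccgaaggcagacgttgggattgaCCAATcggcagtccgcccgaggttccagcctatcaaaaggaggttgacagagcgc

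Ccnb2 carries 3 CCAAT boxes, which begin at −87, −54 and −21 counted from the start, and its nearest CHR match begins at base 5 after it, outside the printed stretch. In Cdk1 the CHR matches begin at −71 and −15, in Cdc20 the match begins at −18, and in Ect2 1 begins at −114 and another at base 40 after the start. The Cdc25b stretch holds 1 CCAAT box on the opposite strand, and a TTCGAA begins at base 8 after the start. A promoter of 300 bases (250 before and 50 after the start) was matched for 34 of the 43 members, and 27 of these (79.4%) held a CHR match on either strand, 25 (73.5%) a CCAAT box, and 24 (70.6%) both. Of all 27025 genes with such a promoter, 21.7% held CHR, 41.1% CCAAT and 8.61% both. In both counts a gene with several annotated starts was counted when the promoter of any of them matched. A match is a match of letters, not evidence that a factor was bound in these livers. The median log2 fold change was −0.087 over the 24 members with both elements (from −0.81 to 0.30) and −0.089 over the 10 without both (from −0.38 to 0.19).

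Most mitosis genes showed small differences between the groups. Of the 43 members, 1 fell past the threshold (limma, Benjamini-Hochberg adjusted p under 0.05 over all 23279 genes) and 0 rose, while of all genes 6.36% were called, 2.77% as lower and 3.59% as higher. The member that fell was Incenp, and with a fold change of at least 1.5 required as well it was 0 members, against 3.98% of all genes. At an unadjusted p under 0.05, 7 members were lower and 1 was higher. Of all genes, 11.5% were lower and 11.1% higher at that p (22.5% in either direction). The difference, labelled knockout minus control, was negative in 34 members and positive in 9, with a median of −0.089 on the log2 scale and a range from −0.81 to 0.30. Over all genes tested the median was −0.0078, and 51.7% of differences were negative. The median size of a difference regardless of sign was 0.11 in the members and 0.13 in all genes, and the median standard error was 0.107 and 0.115. The 3 values of one group did not overlap the 3 of the other in 10 members, 8 lower and 2 higher in the livers labelled knockout, which is 23.3% of the members against 27.3% of all genes (14.3% lower and 13.0% higher). Members are bright features, and of the 7837 genes with a mean at least that of the dimmest member, 11.1% were called and 43.8% had groups that did not overlap.

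The intervals show how large a difference the reported fit leaves room for. That fit has no term for embryo sex, which was not balanced between the groups. With a term for Xist, Pttg1 alone of the members left its interval, at 0.30 against −0.52 to 0.28. In 38 of the 43 members (88.4%) the 95% confidence interval of the difference, not adjusted for the number of genes, lay wholly inside a 1.5-fold change in either direction, as it did in 74.9% of all genes. The other 5 were Cdc25b, Ccnb2, Birc5, Incenp and Mybl2, whose intervals reached past a 1.5-fold fall. No member's interval reached a 1.5-fold rise, the highest upper bound being that of Ect2 at 0.51.

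**Figure D1:**
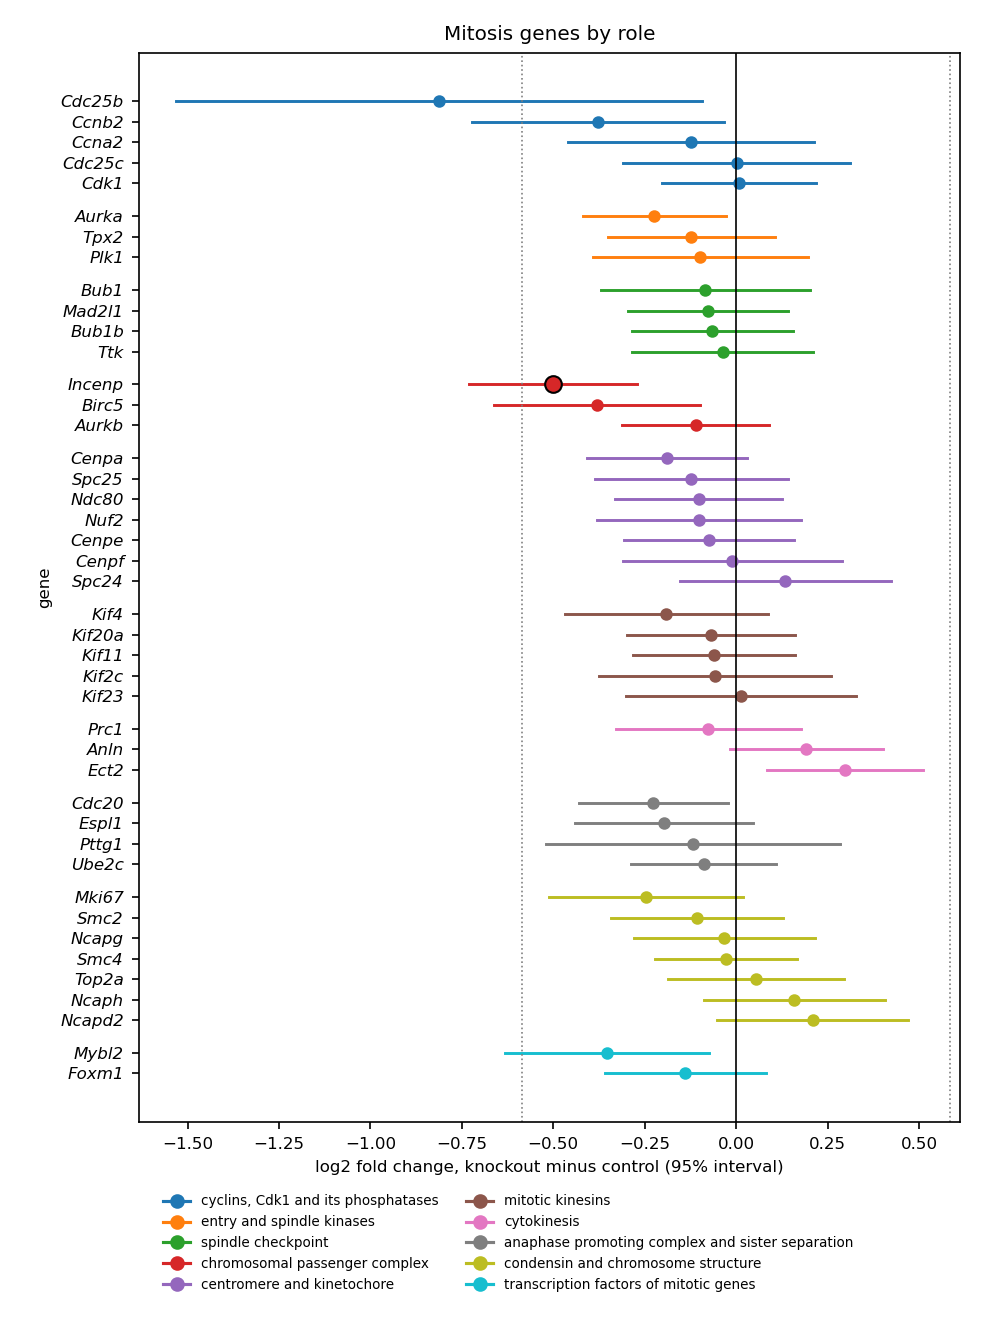
Log2 fold change (labelled knockout minus control, horizontal axis) of 43 mitosis genes grouped by role, with 95% confidence intervals from the limma fit; dotted lines mark a 1.5-fold change and the outlined point is the gene past the threshold. Incenp at −0.50 is the outlined point, Cdc25b at −0.81 has the widest interval, and 38 intervals lie between the dotted lines.

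Facts of the arrays that bear on every value follow. Gata4 itself read 10.38, 10.26 and 10.64 in the livers labelled knockout (replicates 1 to 3) and 9.90, 9.96 and 9.87 in control livers, higher and not lower (limma adjusted p = 0.0409). Liver cells other than endothelium express Gata4, and the position of the probes relative to the deletion is not known here. The values therefore do not check the labels, on which each direction rests. Embryo sex was not balanced: the female transcript Xist was high (10.2 to 10.7) in 4 arrays, the labelled knockout livers plus the second control, and low (3.58 and 3.96) in the other two controls. The hepatocyte lineage genes Alb and Afp read at least 13.33 and 13.29 on every array. Every array has the same distribution of values, so a change in total RNA cannot be seen.

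The chromosomal passenger complex, which corrects faulty attachments and later directs cytokinesis, had the most negative median of the 10 groups of members (−0.38). Incenp, the scaffold that holds the complex together, read 8.61, 8.84 and 8.61 in labelled knockout replicates 1 to 3 and 9.22, 9.15 and 9.19 in control replicates 1 to 3. All control values lay above all labelled knockout values, and labelled knockout replicate 2 was the nearest to them. Incenp fell 1.42-fold (log2 fold change −0.50, SE 0.10, 95% interval −0.73 to −0.27, limma adjusted p = 0.0307; 9.19 ± 0.04 in control and 8.69 ± 0.14 in labelled knockout livers, mean ± SD, n = 3).

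The Incenp call was lost when 5 of the 6 arrays were left out in turn: the limma adjusted p was 0.0616 without labelled knockout replicate 1, 0.0961 without its replicate 3, and 0.0847, 0.0816 and 0.113 without control replicates 1, 2 and 3. Only without labelled knockout replicate 2 was it kept (0.0248). Its log2 fold change stayed between −0.58 and −0.46 in those fits. With a term for Xist the difference was −0.46 with a limma adjusted p = 0.264. Among controls only replicate 2 had high Xist, so this difference is that of the labelled knockout livers from that array alone.

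Birc5 (survivin), the subunit that brings the complex to centromeres, read 8.57, 8.55 and 8.56 in labelled knockout and 8.70, 9.14 and 8.98 in control livers. The groups did not overlap, but control replicate 1 lay close to the labelled knockout values, and Birc5 did not pass (−0.38, 95% interval −0.66 to −0.10, limma adjusted p = 0.112). Aurkb, its kinase, read 10.42, 10.36 and 10.28 against 10.49, 10.45 and 10.45 and did not pass (−0.11, adjusted p = 0.533). Cdca8 (borealin), the remaining subunit, comes from a second list of mitotic genes, was set here after its values were seen, and fell: it read 9.20, 9.27 and 9.21 in labelled knockout and 9.54, 9.74 and 9.98 in control livers (−0.53, SE 0.12, limma adjusted p = 0.0444). In all 4 subunits the labelled knockout values lay below every control value, as in 14.3% of all genes, and 2 of them passed the test, as lower calls did in 2.77% of all genes. Of the 7837 genes at least as bright as the dimmest member, 1870 had labelled knockout values below every control value and 4.50% were called lower.

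Among cyclins, Cdk1 and its phosphatases, none of 5 passed in limma. At an unadjusted p under 0.05, 2 were lower and 0 were higher, against 11.5% and 11.1% of all genes. Cdc25b, a phosphatase that starts the activation of Cdk1, had the most negative difference of all members: it read 6.79, 7.23 and 6.86 in labelled knockout livers and 6.99, 7.98 and 8.35 in control livers. Control replicate 1 lay inside the range of the labelled knockout livers, and the other controls lay above it. The difference was −0.81 with the largest standard error of the members (0.31, 95% interval −1.53 to −0.10, limma adjusted p = 0.170). Without control replicate 1 it was −1.20 and passed (adjusted p = 0.0358), and without control replicate 3 it was −0.52 (adjusted p = 0.411).

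Ccnb2, a B-type cyclin that activates Cdk1, read 10.25, 10.15 and 10.10 in labelled knockout and 10.21, 10.61 and 10.80 in control livers. Again control replicate 1 was at the level of the labelled knockout livers (−0.38, 95% interval −0.72 to −0.03, limma adjusted p = 0.182). Ccna2, the cyclin of S phase and early mitosis, had the same order among controls, at 11.32, 11.56 and 11.90 against 11.46, 11.41 and 11.54 (−0.12, adjusted p = 0.704). Cdk1, the kinase itself, read 10.21, 10.21 and 10.33 against 10.20, 10.33 and 10.20, and the interval of its difference ran from −0.20 to 0.22. The phosphatase gene Cdc25c also showed a difference near 0 (0.001, interval −0.31 to 0.31).

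None of the 3 genes of mitotic entry and the spindle kinases passed in limma. Only 1, Aurka, was lower at an unadjusted p under 0.05, as were 11.5% of all genes. Aurka, which matures centrosomes and builds the spindle, read 9.79, 9.86 and 9.82 in labelled knockout and 10.01, 10.10 and 10.03 in control livers. Its groups did not overlap and its difference was small (−0.22, SE 0.09, limma adjusted p = 0.164). Tpx2, the microtubule protein that activates Aurora A, differed by −0.12 and Plk1, a kinase needed from mitotic entry to cytokinesis, by −0.10 (adjusted p = 0.550 and 0.736). Plk1 overlapped between the groups, at 11.19, 10.81 and 11.12 in labelled knockout and 11.29, 11.08 and 11.05 in control livers.

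The spindle checkpoint genes had the narrowest range of differences of the 10 groups. Bub1, Bub1b (BubR1), Mad2l1 (Mad2) and the kinase Ttk (Mps1) differed by −0.084, −0.065, −0.077 and −0.037, all 4 with overlapping groups and with intervals inside a 1.5-fold change. None of the 4 passed, and none did at an unadjusted p under 0.05 in limma.

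Of 7 centromere and kinetochore genes none passed, and none did at an unadjusted p under 0.05 in limma. Cenpa, the histone H3 variant that marks centromeres, read 10.04, 10.06 and 10.00 in labelled knockout and 10.12, 10.20 and 10.35 in control livers, without overlap (−0.19, adjusted p = 0.295). The 4 genes of the Ndc80 complex, which binds microtubules, differed by −0.10 (Ndc80), −0.10 (Nuf2), −0.12 (Spc25) and 0.13 (Spc24). Cenpe, a kinetochore motor, differed by −0.074 and Cenpf by −0.010.

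The 5 mitotic kinesins did not pass either, and none had an unadjusted p under 0.05 in limma. Kif11, which pushes the spindle poles apart, differed by −0.061, Kif20a by −0.069, and Kif23, a motor of the central spindle, by 0.013. In Kif2c, which takes microtubules apart at their ends, labelled knockout replicate 2 stood above the controls and the other labelled knockout livers below them: it read 9.71, 10.19 and 9.73 against 9.95, 9.92 and 9.93 (−0.058, adjusted p = 0.871). Kif4, a chromosome-bound motor encoded on the X chromosome, read 8.54, 8.91 and 8.56 against 8.83, 8.83 and 8.92 (−0.19, adjusted p = 0.417). Against control replicate 2 alone, the control with high Xist, its difference was −0.16.

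Cytokinesis held the genes with the clearest positive differences, though none passed in the reported fit. Ect2, the exchange factor that activates RhoA at the cleavage furrow, read 11.40, 11.55 and 11.39 in labelled knockout and 11.19, 11.09 and 11.18 in control livers. All labelled knockout values lay above all control values, at 1.23-fold (0.30, SE 0.09, 95% interval 0.08 to 0.51, limma adjusted p = 0.102). It passed only when the variance was modelled with a trend (adjusted p = 0.0358). Anln (anillin), the scaffold of the contractile ring, read 9.63, 9.81 and 9.64 against 9.50, 9.50 and 9.51, also without overlap (0.19, adjusted p = 0.264). Prc1, which bundles the microtubules of the central spindle, differed by −0.076.

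Genes of the anaphase-promoting complex and of sister separation had negative differences in all 4 cases and none passed in limma. Only 1, Cdc20, was lower at an unadjusted p under 0.05, as were 11.5% of all genes. Cdc20, the activator of the complex, read 10.00, 10.09 and 9.93 in labelled knockout and 10.20, 10.25 and 10.25 in control livers, without overlap (−0.23, SE 0.09, adjusted p = 0.177). Espl1, separase, differed by −0.20 and Ube2c, the ubiquitin-conjugating enzyme of the complex, by −0.089. Pttg1, securin, had the lowest mean signal of the members and was spread widely among controls: it read 7.16, 7.13 and 7.31 against 7.59, 6.90 and 7.47 (−0.12, adjusted p = 0.774). Signals of different features are not comparable as amounts of RNA, because probes differ.

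Condensin and chromosome structure genes went in both directions, and none of 7 passed (0 also at an unadjusted p under 0.05 in limma). Ncapd2 and Ncaph, regulatory subunits of condensin I, were among the 4 members with the most positive differences. Ncapd2 read 9.88, 10.00 and 9.98 in labelled knockout and 9.58, 9.94 and 9.71 in control livers (0.21, adjusted p = 0.335), and Ncaph read 9.97, 10.09 and 10.00 against 9.77, 9.76 and 10.04 (0.16, adjusted p = 0.450). In both, the groups overlapped through 1 control, replicate 2 for Ncapd2 and replicate 3 for Ncaph. The third such subunit, Ncapg, differed by −0.033, and the ATPase subunits Smc2 and Smc4 by −0.11 and −0.027.

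Mki67, whose product Ki-67 coats mitotic chromosomes and is the common histological label of cycling cells, had the highest mean signal of the members. It read 11.63, 11.83 and 11.55 in labelled knockout and 11.76, 12.01 and 11.99 in control livers (−0.25, 95% interval −0.51 to 0.02, limma adjusted p = 0.257). Control replicate 1 overlapped the labelled knockout livers. Top2a, the topoisomerase that untangles sister chromatids, read 11.10, 11.37 and 11.15 against 11.13, 11.23 and 11.09 (0.05, interval −0.19 to 0.30).

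Both transcription factors had labelled knockout values below all controls, and neither passed. Such values were found in 14.3% of all genes, and in 1870 of the 7837 genes at least as bright as the dimmest member. Mybl2 (B-Myb), which joins the MuvB complex in S phase, read 10.14, 9.96 and 9.95 in labelled knockout and 10.26, 10.26 and 10.60 in control livers (−0.35, 95% interval −0.63 to −0.075, limma adjusted p = 0.130). Foxm1, the forkhead factor that drives G2 and M phase genes, read 9.04, 9.13 and 9.10 against 9.17, 9.36 and 9.15 (−0.14, adjusted p = 0.467).

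**Figure D2:**
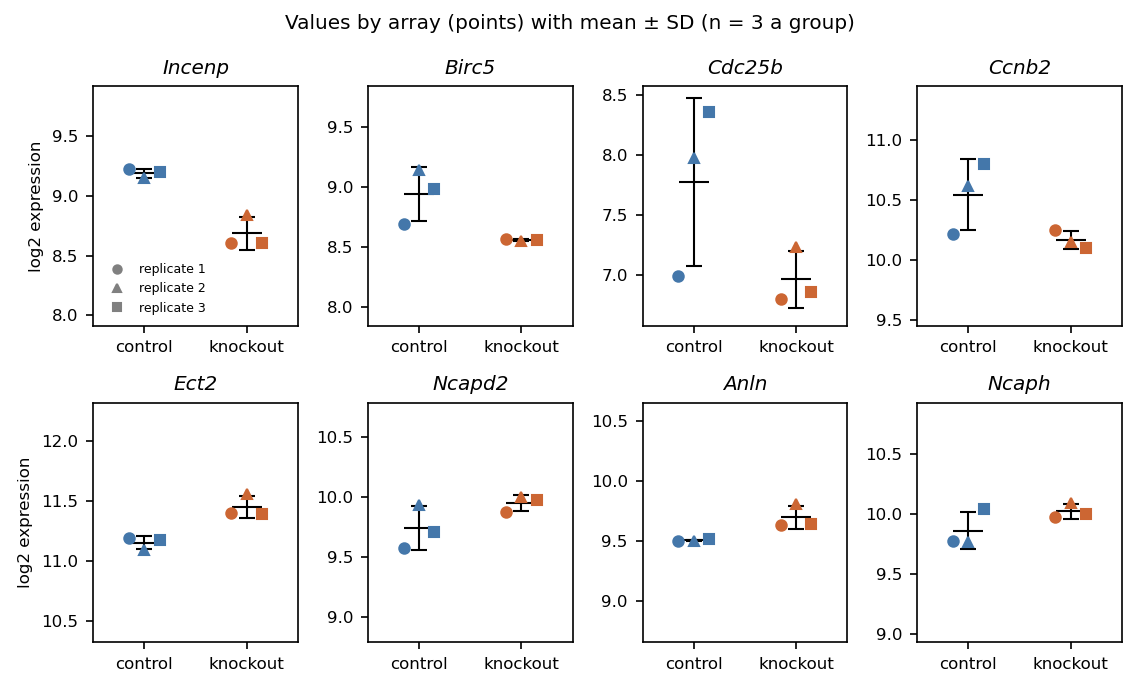
Log2 expression (vertical axis, a span of 2 units in each panel) by array in control and labelled knockout livers for the 4 members with the most negative and the 4 with the most positive difference; symbols mark replicates, and bars show mean ± SD with n = 3. Incenp, Birc5, Ect2 and Anln show separate groups, while control replicate 1 lies at the level of the labelled knockout livers in Cdc25b and Ccnb2.

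Single arrays moved the members together. Relative to the control mean of each gene, the median over the 43 members was −0.14, −0.009 and −0.13 in labelled knockout replicates 1, 2 and 3, and −0.072, 0.003 and 0.044 in control replicates 1, 2 and 3. Labelled knockout replicate 2 therefore lay among the controls and held the highest of the 3 labelled knockout values in 31 members. It was below the control mean in 22 members, against 36 and 34 for replicates 1 and 3. Control replicate 1 held the lowest control value in 26 members. The median difference of the members was −0.14 without labelled knockout replicate 2 and −0.060 without replicate 1. Against control replicate 2 alone it was −0.094, with 35 members negative.

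**Figure D3:**
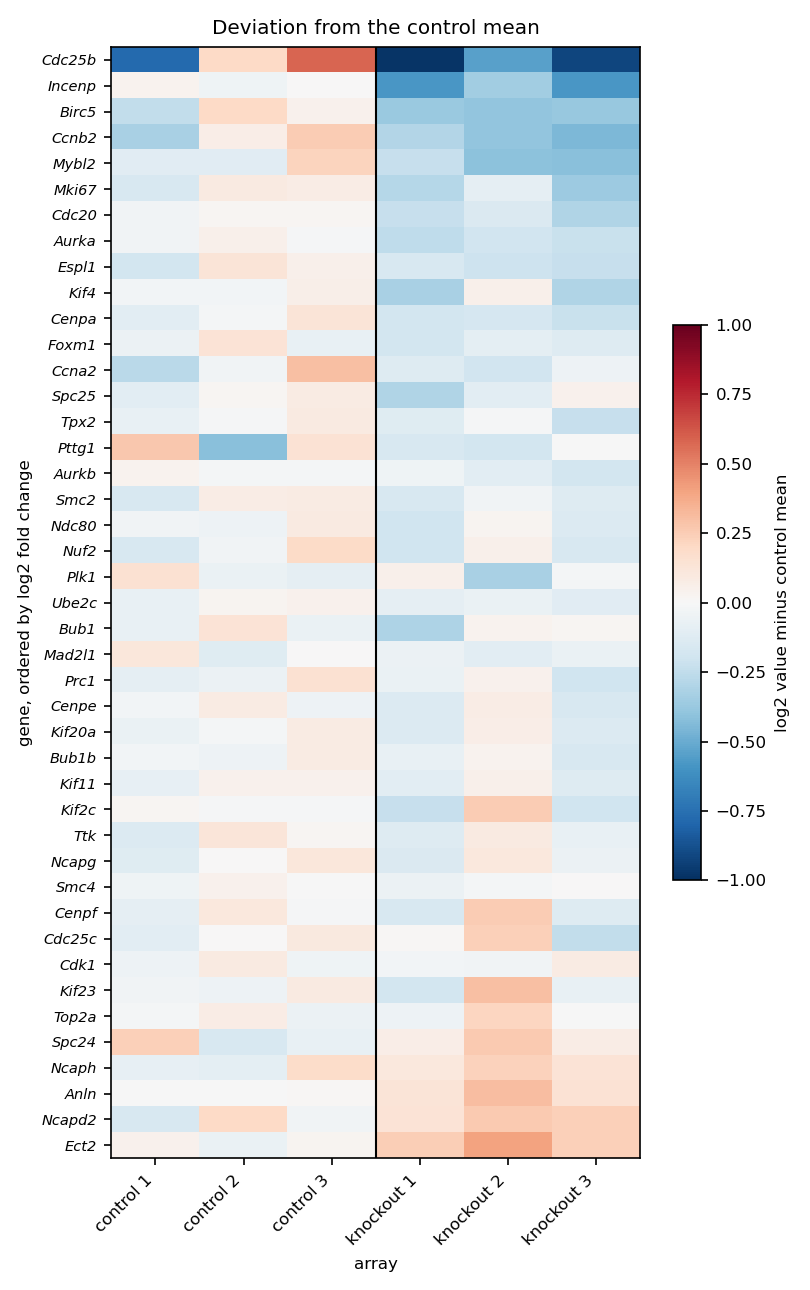
Log2 value minus the control mean of the same gene (colour) for 43 mitosis genes (rows, ordered by difference) in 6 arrays (columns). Labelled knockout replicate 2 is the highest of its group in 31 rows and control replicate 1 the lowest of its group in 26.

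Beyond these 43 genes, 118 other genes of mitosis from 5 further lists were read in the same fit, of which 6 fell and 1 rose. This is 5.93% called (5.08% lower), against 6.36% of all genes (2.77% lower), and the median was −0.17. Of genes at least as bright as the dimmest mitosis gene, 11.1% were called (4.50% lower). At an unadjusted p under 0.05 in limma, 37 of the 118 were lower and 6 higher, against 11.5% and 11.1% of all genes. Labelled knockout values lay below every control value in 40 and above in 10, against 14.3% and 13.0% of all genes. Of 34 other kinetochore and checkpoint genes 30 had a negative difference (median −0.26). In limma, 16 were lower and 1 higher at an unadjusted p under 0.05. Past the threshold, 4 fell (11.8%) and 0 rose. They were Cdca8, described above, the microtubule-binding Ska1 (−0.60, limma adjusted p = 0.0386), and Cenpp (−0.54, adjusted p = 0.0300) and Cenpu (−0.52, adjusted p = 0.0404) of the inner kinetochore. Of 29 other spindle and cytokinesis genes none passed (10 lower and 0 higher at an unadjusted p under 0.05 in limma; median −0.19), the smallest p being those of Kif14 (−0.43, adjusted p = 0.0548), Nek2 (−0.37, adjusted p = 0.0757) and Cit (−0.42, adjusted p = 0.107). Of 27 other regulators of mitotic entry and exit none passed, among them Cdc14b (0.37, adjusted p = 0.0502). Their median was 0.004, with 3 lower and 3 higher at an unadjusted p under 0.05 in limma. At that p, 11.5% of all genes were lower and 11.1% higher.

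Cohesin and condensin II genes had a median near 0 (16 genes, median 0.014, range −0.56 to 0.23). At an unadjusted p under 0.05 in limma, 4 were lower and 0 higher, against 11.5% and 11.1% of all genes. The 1 that fell past the threshold was Cdca5 (sororin), which keeps cohesin on sister chromatids. It read 8.74, 8.71 and 8.55 in labelled knockout and 9.13, 9.21 and 9.33 in control livers (−0.56, SE 0.10, limma adjusted p = 0.0243). Of 12 genes of the DREAM and MuvB complexes, which repress and then activate mitotic genes, 10 had a negative difference (median −0.20). E2f4 fell (−0.42, adjusted p = 0.0474) and E2f5 rose (0.46, adjusted p = 0.0402). The share called was 16.7% of these 12 genes and 6.25% of the 16 above, against 6.36% of all genes.

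The genes of the G1 to S transition and of DNA replication, the preceding part of the cycle, had a more negative median than the mitosis genes. Of 50 measured, 5 fell and 0 rose (10.0% called), 45 had a negative difference, and the median was −0.23. The share called was 6.36% over all genes (2.77% lower) and 11.1% over genes at least as bright as the dimmest mitosis gene (4.50% lower). At an unadjusted p under 0.05 in limma, 26 were lower and 2 higher, against 11.5% and 11.1% of all genes. Of the 7837 genes at least that bright, 1489 were lower and 1364 higher at that p. Labelled knockout values lay below every control value in 29 of the 50 and above in 2, against 14.3% and 13.0% of all genes. Fen1, the nuclease that processes Okazaki fragments, fell by 0.79 (limma adjusted p = 0.0103), the histone mRNA-binding protein Slbp by 0.53 (adjusted p = 0.0221) and the helicase component Cdc45 by 0.50 (adjusted p = 0.0355) on the log2 scale. The list's median per array was −0.25 in each labelled knockout liver and −0.082, 0.010 and 0.087 in control replicates 1 to 3. The difference between this list and the mitosis genes was not tested.

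Markers of several cell types moved with the groups, with medians further from 0 than that of the mitosis genes. Of all genes tested, 2.77% fell and 3.59% rose past the threshold. Of genes at least as bright as the dimmest mitosis gene, 11.1% were called in either direction. Of 17 erythroid genes 9 fell and all 17 had a negative difference (median −0.80); their summed signal, as log2 of the sum, was 14.03 to 14.65 in control and 13.54 to 13.76 in labelled knockout livers. Of 12 macrophage genes 10 fell (median −1.19; 11.41 to 11.75 against 10.32 to 10.72), of 10 granulocyte and mast cell genes 9 fell (median −1.38; 11.36 to 11.89 against 9.60 to 10.57), and of 8 megakaryocyte genes 3 fell (median −0.81; 13.06 to 13.47 against 11.93 to 12.93). Of 10 sinusoidal endothelial genes 7 fell (median −0.70; 11.53 to 11.66 against 10.53 to 10.85). Of 14 hepatoblast genes 2 rose (median 0.28; 15.19 to 15.25 against 15.19 to 15.37), of 14 mesenchyme and stellate cell genes 6 rose (median 0.47; 13.33 to 13.53 against 13.93 to 14.04), and of 10 pan-endothelial genes 4 rose (median 0.42; 12.07 to 12.27 against 12.45 to 12.76). The mitosis genes summed to 15.58 to 15.71 in control and 15.53 to 15.64 in labelled knockout livers, ranges that overlap. No marker could read 0, since the lowest value of all features was 2.55. Some markers came near that floor, the lowest value being 2.94 in the macrophage and 3.23 in the sinusoidal endothelial list. The part of these cell types in the values of the mitosis genes was not tested.

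The order of the arrays within a group differed between lists. In labelled knockout replicate 2, where the mitosis genes were highest, the medians of the hepatoblast (0.048), mesenchyme (0.26) and pan-endothelial (0.28) lists were the lowest of the labelled knockout livers, and those of macrophage (−1.30) and granulocyte genes (−1.97) were the lowest too. Among controls, replicate 1 had the lowest median of the erythroid list (−0.22) as well as of the mitosis genes, and replicate 3 the highest of both (0.26 for erythroid genes).

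**Figure D4:**
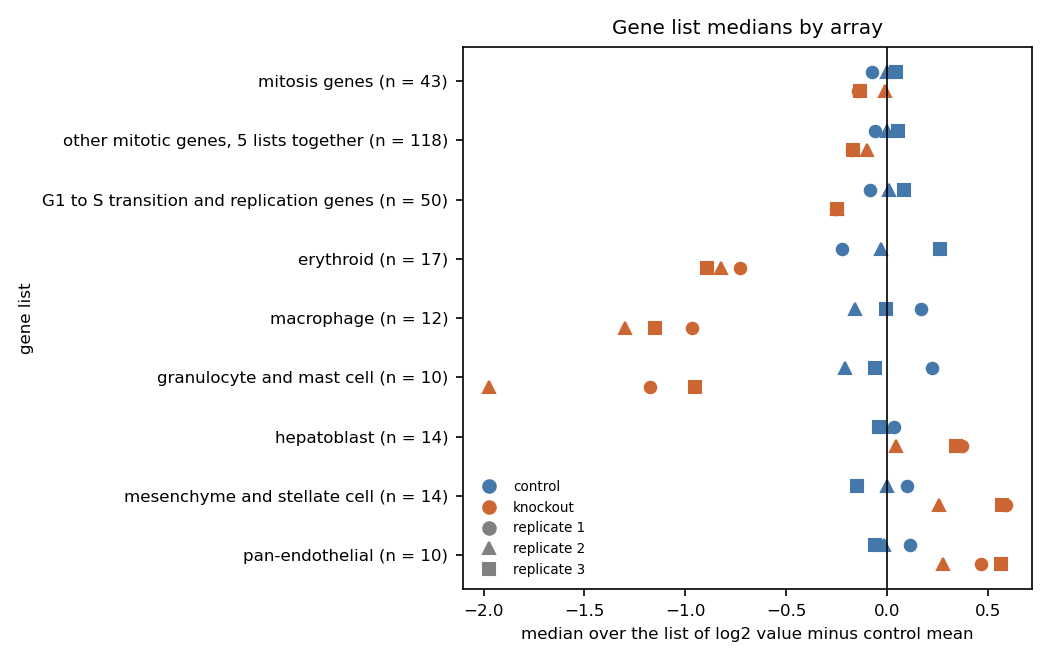
Median over each gene list, after subtracting the control mean of each gene (log2, horizontal axis), in each of 6 arrays; colours mark the groups and symbols the replicates. The mitosis genes lie between −0.14 and 0.044 in all 6 arrays, while the erythroid list lies between −0.89 and −0.73 in labelled knockout livers, and the 3 labelled knockout symbols of the replication list coincide at −0.25.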

How the data were processed

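Liver RNA of 3 samples labelled knockout and 3 control samples was hybridised to Affymetrix arrays, 1 sample an array. The deposited values are log2 expression values. The authors made them with RMA, a tool named without a version in the submitters' processing notes; the log2 scale was read from the values (2.55 to 13.9, sorted values identical in all arrays). The chip definition and its build are likewise not given here. Columns without a sample numbered 0. The platform's annotation named 23281 of 24479 features and left 1198 unnamed; for 2 names with a pair of features the brighter was kept, leaving 23279 genes.

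Genes were compared with limma 3.58.1 in R 4.3.3 (lmFit, eBayes, no covariate), Benjamini-Hochberg adjusted over all genes, with 4 residual and 4.06 prior degrees of freedom. An exact permutation test of 3 against 3 cannot go below p = 0.1 and was not used. The fit was tested on simulated data. The number of arrays limits the precision, and p-values measure the spread between samples called biological replicates.

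Members and lists (321 of 331 symbols matched) were chosen with earlier results of these data known. Named with values of all arrays were members past the threshold, the 4 most positive and 4 most negative, the brightest and the dimmest, and others that a result turns on, chosen after their values were seen. Of each further list up to 3 genes by smallest p were named; outside that rule, Cdca8, as the remaining passenger subunit, and Cdkn2d, as the remaining inhibitor past the threshold, were added after their values were seen. Alternatives were a variance trend, robust eBayes, median centring, repeated quantile normalisation, array weights, leaving out the dimmest 25% or 50% of genes, the replicate block, a term for Xist, leaving out X and Y, control replicate 2 alone, an adjusted p of 0.1, a 1.5-fold minimum, averaged features, and leaving out each array.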

Additional observations from a re-analysis of the deposited data

How the results depend on the processing

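The count of mitosis genes past the threshold was 1 in the reported fit. It was 2 with a variance trend (Incenp lower and Ect2 higher), and 0 with the replicate block, 0 with the term for Xist, 0 against control replicate 2 alone and 0 with a fold change of at least 1.5. In the limma fits with a replicate block, a term for Xist and control replicate 2 alone, 5, 3 and 4 members had an unadjusted p under 0.05, against 8 in the reported fit. Under the block the adjusted p of Incenp was 0.0689. The arrays share only a number: same-numbered arrays did not deviate together (correlations −0.052, −0.011 and −0.077), and none correlated best with its own number. Among all genes the block left 686 calls of 1480, the term for Xist left 3, and control replicate 2 alone left 0. The fit against 1 control assumes that it varies like the other group. Leaving out 1 array gave 0 to 1 members, and the 1 was Cdc25b, not Incenp, without control replicate 1. The median difference of the members stayed negative under every alternative run, between −0.14 and −0.06. Of the 43 members, 29 kept their sign under every alternative, and the 14 that did not had a difference of at most 0.12 in size. A member's difference changed only with repeated quantile normalisation, median centring, array weights, the term for Xist, control replicate 2 alone or an array left out. The other alternatives left each difference they gave unchanged, so a sign kept there shows nothing. The term for Xist and control replicate 2 alone gave the same differences. Only Incenp, Cdc25b and Ect2 changed sides of the threshold in any alternative. No measure of signal over background was used.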

Other observations

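Genes that hold cells back from dividing moved in both directions. Of 15 cell cycle inhibitors and related genes, 2 rose and 2 fell past the threshold (limma; 26.7% called, against 6.36% of all genes). Cdkn1c, the Cdk inhibitor p57, read 10.47, 10.46 and 10.60 in labelled knockout and 10.06, 9.89 and 9.82 in control livers, a rise of 0.59 (SE 0.10, limma adjusted p = 0.0221). The atypical cyclin Ccng2 rose by 0.74 (SE 0.15, adjusted p = 0.0323), at 7.78, 8.37 and 8.17 against 7.26, 7.42 and 7.42. Cdkn2d, the Cdk4 and Cdk6 inhibitor p19, fell by 0.65 (SE 0.15, adjusted p = 0.0481), and Ccng1, a p53 target, fell by 0.42 (SE 0.09, adjusted p = 0.0312). In all 4 the groups did not overlap, as in 27.3% of all genes. The list's median difference was −0.11, against −0.0078 for all genes.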
